A study of Mus musculus with 11 samples.

Results

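The 40 genes described here are expressed by microglia, the macrophages that live in the retina. They were taken by name from a table of 23284 mouse genes. No threshold on the values was used, but the list was drawn up with earlier results of these data known. 4 of them mark the resting (homeostatic) state (P2ry12, P2ry13, Tmem119 and Cx3cr1), 17 are expressed by microglia in any state and are called shared, and 19 are known to increase when microglia are activated. 39 had a row under their own symbol, and Spi1 was listed under its older symbol Sfpi1. The retinas came from Nrl knock-out mice (Nrl-/-, 6 mRNA libraries) and from wild-type mice (WT, 5 libraries), all at postnatal day 21. The Nrl gene codes for the transcription factor that directs photoreceptor precursors to become rods. The labels give neither the strain nor the deleted part of Nrl, and do not state whether each library is a separate animal. The p-values therefore reflect the scatter among these libraries, some of which may be technical. Each library was made from whole retina, in which microglia are a small part of the tissue.

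Resting microglia survey the tissue with fine processes, guided by purinergic and chemokine receptors, and depend on signals through the receptor Csf1r. When neurons degenerate or debris builds up, microglia change shape, take up material into lysosomes and raise genes for phagocytosis, antigen presentation and pattern recognition. In brain disease models of the mouse, part of this response runs through the receptor Trem2 and its adaptor Tyrobp, and is accompanied by loss of resting-state genes.

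The knock-out libraries held 14907613 to 19877314 reads in genes and the WT libraries 16126210 to 20685840. Values are normalized counts (reads divided by 1 size factor per library). 3 reads, taken here as an approximate upper bound for a count of 0, are worth 2.61 to 3.50 normalized counts in knock-out libraries and 2.76 to 3.59 in WT libraries, counting error only. Nrl itself stood at 51.7 ± 5.09 normalized counts in knock-out retinas and 37017 ± 1947 in WT retinas (SD, n = 6 and 5), as the labels state. Gnat1, the rod transducin gene, averaged 210.4 normalized counts in knock-out retinas and 321354 in WT retinas, and the short-wave cone opsin Opn1sw 111774 and 8151. Among the microglial members, P2ry12, Tmem119, Cx3cr1 and Csf1r were above 3 reads in all 11 libraries.

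Microglial transcripts were more abundant in the knock-out retina across every functional group. 38 of the 39 members that could be tested rose, none fell, and Spp1 was not called (limma, Benjamini-Hochberg adjusted p under 0.05 over 14584 genes). All 39 log2 fold changes were positive, and edgeR and DESeq2 also called 38 members higher and 0 lower. Among all tested genes 23.6% rose and 22.7% fell, 46.3% in either direction. Of the members, 36 rose at least 2-fold, against 5.17% of all tested genes. For 37 members every knock-out library lay above every WT library, against 16.4% of all tested genes (30.9% were apart in either direction). The median log2 fold change of the 39 was 2.02, and that of all tested genes was -0.01. Together the 40 genes took 0.0382% ± 0.00566 of the reads in knock-out libraries and 0.0109% ± 0.0010 in WT libraries (SD, n = 6 and 5), a ratio of 3.52. In bulk tissue, more cells of a type and more RNA per cell cannot be told apart.

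The test needed at least 10 normalized counts in at least 5 libraries. 16 members (Spi1, Aif1, Ptprc, Tlr4, Tlr7, Itgax, Cd74, H2-Aa, H2-Eb1, Fcgr1, Fcgr2b, Cd86, Tlr2, Cst7, Clec7a and Cybb) met this only through their knock-out libraries, so a rise in them is partly built into the filter. 23 members met it in WT retinas alone, and 22 of these rose, with a median log2 fold change of 1.82. The exception was again Spp1. A fit with no filter on low values tested all 40 members and called the same number, 38, higher. Lyz1 was the member that could not be tested, with 3 reads in all knock-out libraries together and 3 in all WT libraries together.

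**Figure D1:**
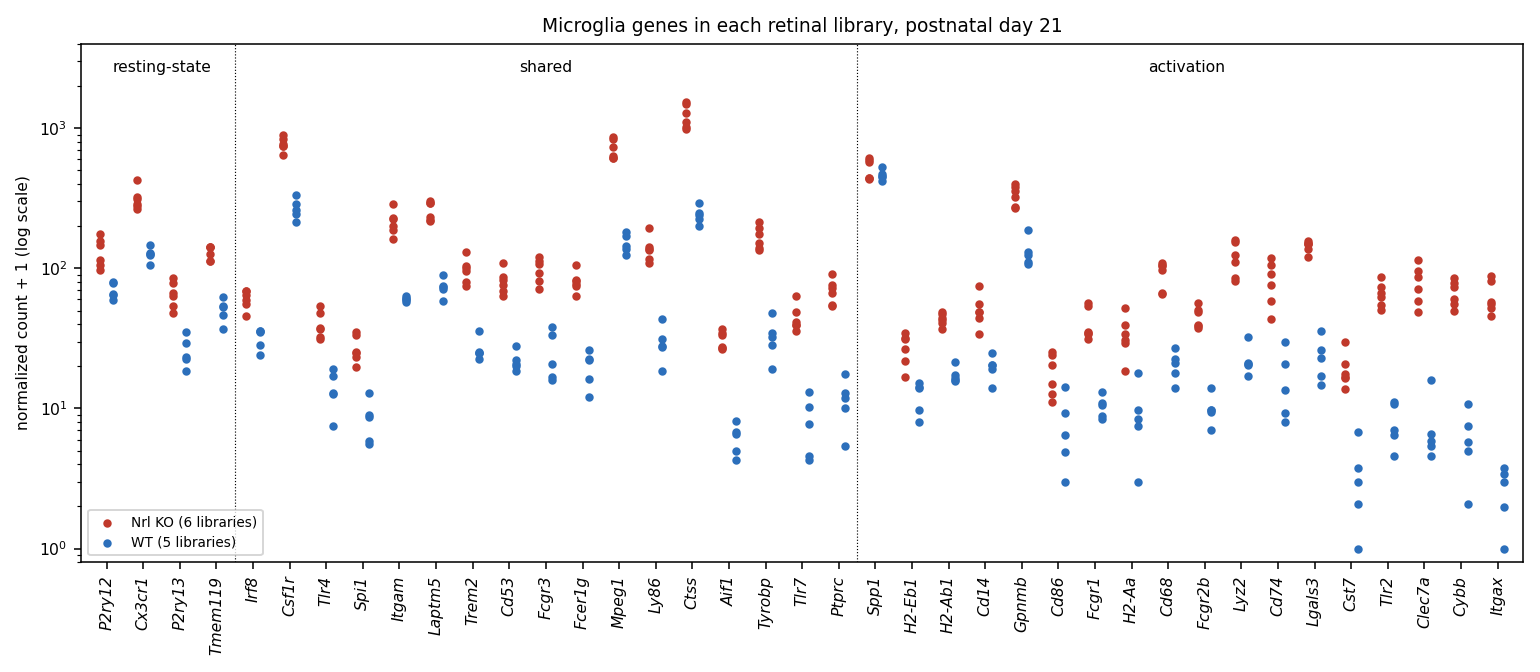
Normalized counts (plus 1, log axis) of the 39 tested members in each of 6 Nrl KO libraries (red, left of each pair) and 5 WT libraries (blue, right), grouped into resting-state, shared and activation genes and ordered by fold change within each group. The 2 columns of points overlap for Spp1 and Cd86 and are apart for the other 37 genes.

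The promoters of 4 members are shown to set strong and weak risers side by side: Itgax had the largest rise of all members, Cybb was next and carries a composite motif, Ctss had the highest level per length in knock-out retinas, and P2ry12 had the smallest rise of the resting-state genes. Each runs from 250 bases before to 50 bases after the RefSeq transcript start, 5′ to 3′ on the strand of the gene, in build GRCm38.p6. Itgax lies at chr7:128129300-128129599 (plus strand), Cybb at chrX:9469275-9469574 (minus strand), Ctss at chr3:95526536-95526835 (plus strand) and P2ry12 at chr3:59262936-59263235 (minus strand). Capitals mark matches on either strand to GGAAGT, a core bound by ETS factors such as Spi1 (PU.1), to GAGGAAGT, a longer form of it preferred by PU.1, and to GGAA and GAAA parted by any 2 bases, a composite element bound by PU.1 together with an interferon regulatory factor such as Irf8. A match on the other strand appears as its reverse complement.
Itgax: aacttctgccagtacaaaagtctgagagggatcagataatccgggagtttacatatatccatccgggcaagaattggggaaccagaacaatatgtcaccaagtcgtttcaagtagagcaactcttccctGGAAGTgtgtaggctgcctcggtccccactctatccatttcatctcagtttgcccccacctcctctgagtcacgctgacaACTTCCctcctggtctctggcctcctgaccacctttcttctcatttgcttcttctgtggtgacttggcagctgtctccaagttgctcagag
Cybb: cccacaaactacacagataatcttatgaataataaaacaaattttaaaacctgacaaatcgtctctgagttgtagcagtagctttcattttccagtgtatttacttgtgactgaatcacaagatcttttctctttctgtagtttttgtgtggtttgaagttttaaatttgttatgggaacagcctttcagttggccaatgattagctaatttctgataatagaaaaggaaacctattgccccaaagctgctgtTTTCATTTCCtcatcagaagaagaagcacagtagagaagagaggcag
Ctss: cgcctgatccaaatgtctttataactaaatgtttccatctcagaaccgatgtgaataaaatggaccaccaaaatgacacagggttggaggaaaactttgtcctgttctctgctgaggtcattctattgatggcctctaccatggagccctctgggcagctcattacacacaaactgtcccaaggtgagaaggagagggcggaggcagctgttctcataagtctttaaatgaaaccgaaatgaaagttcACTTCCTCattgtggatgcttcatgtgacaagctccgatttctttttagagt
P2ry12: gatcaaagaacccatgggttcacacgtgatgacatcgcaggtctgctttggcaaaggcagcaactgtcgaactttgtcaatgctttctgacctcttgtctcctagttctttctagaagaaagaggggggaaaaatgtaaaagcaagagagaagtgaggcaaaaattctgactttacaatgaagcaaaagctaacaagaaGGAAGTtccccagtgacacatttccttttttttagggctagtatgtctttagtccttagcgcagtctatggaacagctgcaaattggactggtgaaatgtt
Itgax holds GGAAGT once on each strand, Cybb holds the composite element on the reverse strand, Ctss holds GAGGAAGT on the reverse strand, and P2ry12 holds GGAAGT on the forward strand.

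RefSeq gave 35 promoters for 30 of the 40 members. GGAAGT stood in 15 of the 35 (42.9%), which belong to 14 genes, and in 23.8% of all 32851 promoters of this length. GAGGAAGT, each match of which also contains GGAAGT, stood in 3 of the 35 (8.57%), those of Cd53, Ctss and Spp1, and in 3.20% of all promoters. The composite element stood in 5 of the 35 (14.3%), which belong to Cd68, Clec7a, Cybb and Fcgr2b, and in 2.72% of all promoters. These are letter matches in short windows, shown as a description, and binding was not measured.

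All 4 resting-state genes rose, by less than most other members. P2ry12, the ADP receptor with which microglia sense injury, had 95.6 to 175 normalized counts in knock-out libraries (median 129.8), against 77.9, 79.2, 63.1, 64.4 and 58.1 in WT libraries. The lowest knock-out library lay above the highest WT library, but the rise was the smallest of the class (log2 fold change 0.91, SE 0.15, limma adjusted p = 6.53e-05). P2ry13, a second ADP receptor of microglia, had 47.0 to 83.9 normalized counts in knock-out libraries (median 64.1), against 21.6, 28.5, 22.3, 17.5 and 34.0 in WT libraries. Tmem119, a membrane protein used to tell microglia from blood-derived macrophages, had 111 to 142 normalized counts in knock-out libraries (median 133), against 52.7, 61.7, 35.9, 45.8 and 52.1 in WT libraries. The groups of both genes were well apart, and their means differed 2.62-fold for P2ry13 and 2.59-fold for Tmem119. Cx3cr1, the receptor for the neuronal chemokine fractalkine, had 264 to 429 normalized counts in knock-out libraries (median 298), against 128, 125, 145, 105 and 123 in WT libraries. Knock-out replicate 2 was the high library, and the groups did not overlap (log2 fold change 1.31, SE 0.11, limma adjusted p = 1.64e-08). The median log2 fold change of the class was 1.34, and all 4 genes met the filter in WT retinas alone.

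Csf1r, the receptor for the growth factors that keep microglia alive, had 645 to 895 normalized counts in knock-out libraries (median 758), against 333, 289, 258, 213 and 244 in WT libraries. Every knock-out library was well above every WT library (log2 fold change 1.54, SE 0.10, limma adjusted p = 1.69e-09). In the GENCODE annotation 17.9% of its exon bases lie opposite exons of Hmgxb3, and the strand setting of the counting is not given in the sources used here. Hmgxb3 stood at 975 ± 59.1 normalized counts in knock-out retinas and 915 ± 50.3 in WT retinas (SD, n = 6 and 5), a difference that was not called (log2 fold change 0.09, limma adjusted p = 0.179).

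Both myeloid transcription factors rose, by unequal amounts. Spi1, which encodes PU.1, the factor that establishes the macrophage lineage, had 18.7 to 34.3 normalized counts in knock-out libraries (median 24.1), against 11.98, 4.603, 4.85, 7.64 and 8.01 in WT libraries. It was low in all WT libraries, and replicate 1 was the highest of them (log2 fold change 1.72, SE 0.25, limma adjusted p = 1.73e-05). Irf8, a partner of PU.1 in macrophage development, had 44.4 to 67.6 normalized counts in knock-out libraries (median 61.3), against 34.7, 35.0, 34.0, 27.3 and 23.0 in WT libraries. The groups were close but apart, and the rise was the smallest of the 17 shared genes (log2 fold change 0.93, SE 0.16, limma adjusted p = 7.5e-05).

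The leukocyte surface genes Ptprc, Cd53 and Itgam and the cytoplasmic marker Aif1 all rose. Ptprc, which encodes the leukocyte phosphatase CD45, had 53.0 to 89.8 normalized counts in knock-out libraries (median 68.3), against 10.8, 11.97, 16.5, 4.36 and 9.01 in WT libraries. This was the largest rise of the shared genes (log2 fold change 2.66, SE 0.25, limma adjusted p = 4.23e-08). Aif1, which encodes the microglial stain IBA1, had 25.7 to 36.1 normalized counts in knock-out libraries (median 29.4), against 7.19, 5.52, 5.82, 3.27 and 4.01 in WT libraries. Ptprc and Aif1 met the filter only through the knock-out libraries. The tetraspanin Cd53 rose 3.84-fold in the means, and Itgam, the integrin CD11b, rose 3.61-fold. 66.3% of the 50-base windows of Itgam also occur in Gm49368, a gene model that overlaps it, so its level is uncertain.

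Trem2, a lipid-sensing receptor of phagocytes, and a pair of signalling adaptors rose. Tyrobp, the adaptor (DAP12) that carries the signal of Trem2, had 133 to 212 normalized counts in knock-out libraries (median 163), against 31.1, 46.9, 27.2, 33.8 and 18.03 in WT libraries. Trem2 had 73.6 to 131 normalized counts in knock-out libraries (median 96.7), against 21.6, 23.9, 24.3, 34.9 and 24.0 in WT libraries. Fcer1g, the adaptor shared by activating Fc receptors, had 62.5 to 105 normalized counts in knock-out libraries (median 78.2), against 25.2, 21.2, 21.4, 15.3 and 11.02 in WT libraries. None of the 3 overlapped between genotypes, and the log2 fold changes were 2.42 for Tyrobp, 1.86 for Trem2 and 2.07 for Fcer1g. All 3 met the filter in WT retinas alone.

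The 3 Fc receptors rose by similar amounts, with log2 fold changes of 1.96 (SE 0.21) for the activating receptor Fcgr1, 2.04 (SE 0.22) for the activating receptor Fcgr3 and 2.20 (SE 0.20) for the inhibitory receptor Fcgr2b. Fcgr2b, which restrains signalling by the activating receptors, had 36.6 to 55.2 normalized counts in knock-out libraries (median 43.0), against 8.39, 12.9, 8.74, 8.73 and 6.01 in WT libraries. Fcgr3 and Fcgr2b share sequence: 9.58% of the 50-base windows of Fcgr3 also occur in Fcgr2b, so reads may be split between them.

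The sensors of microbial and damage signals covered a wide range, from 1.35 to 3.47 on the log2 scale. Clec7a (Dectin-1), a receptor for beta-glucans that is raised on microglia around amyloid in mouse models, had 47.9 to 113 normalized counts in knock-out libraries (median 78.2), against 3.59, 5.52, 4.85, 4.36 and 15.02 in WT libraries. WT replicate 5 was high among its group and still far below the lowest knock-out library (log2 fold change 3.47, SE 0.30, limma adjusted p = 2.4e-08). Tlr2, a receptor for bacterial lipoproteins, had 49.6 to 86.3 normalized counts in knock-out libraries (median 63.7), against 3.59, 10.1, 9.71, 5.45 and 6.01 in WT libraries. Its means differed 9.31-fold. Tlr4, the lipopolysaccharide receptor, had 30.5 to 53.0 normalized counts in knock-out libraries (median 36.5), against 17.97, 11.97, 11.6, 6.55 and 16.02 in WT libraries. Its rise was smaller (log2 fold change 1.58, SE 0.23, limma adjusted p = 1.85e-05), and so was that of its co-receptor Cd14 (1.35, SE 0.20). Tlr7, the endosomal sensor of single-stranded RNA, rose by 2.59 (SE 0.28), and Ly86, which pairs with the Toll-like receptor homologue Cd180, by 2.25 (SE 0.19). Clec7a, Tlr2, Tlr4 and Tlr7 met the filter only through the knock-out libraries.

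All 5 genes of antigen presentation to CD4 T cells rose, and Cd74 had the largest log2 fold change. Only H2-Ab1 met the filter in WT retinas alone. Cd74, the invariant chain that escorts class II molecules, had 42.3 to 118 normalized counts in knock-out libraries (median 82.6), against 28.8, 8.28, 12.6, 19.6 and 7.01 in WT libraries. WT replicate 1 was the highest of its group, and the groups did not overlap (log2 fold change 2.43, SE 0.35, limma adjusted p = 4.3e-05). Among the class II chains, log2 fold changes were 2.02 (SE 0.36) for H2-Aa, 1.33 (SE 0.16) for H2-Ab1 and 1.15 (SE 0.24) for H2-Eb1. The difference between Cd74 and H2-Aa was not tested. H2-Ab1, the most even of them, had 35.9 to 48.2 normalized counts in knock-out libraries (median 42.8), against 20.4, 14.7, 15.5, 16.4 and 15.02 in WT libraries. Cd86, the co-stimulatory ligand, had 10.2 to 24.5 normalized counts in knock-out libraries (median 16.6), against 13.2, 8.28, 3.88, 5.45 and 2.00 in WT libraries. It rose (log2 fold change 1.39, SE 0.36, limma adjusted p = 0.00379), but its groups overlapped, with 4 of 6 knock-out libraries above all WT libraries. Of 8 tested genes of the machinery around class II, Rfxap and Rfx5 rose, Nfyc and Nfya fell, and 4 were not called. These counts lie near the shares of all tested genes, of which 23.6% rose and 22.7% fell. With no filter on low values 4 of 12 genes of this list were called higher. The share of all genes called in that fit is not given here, so this count has no background to set it against. Below the filter, reads in all knock-out and all WT libraries were 53 and 21 for H2-DMb1 and 35 and 8 for H2-Ob. They were 10 and 2 for H2-Oa and 3 and 0 for H2-DMb2. Ciita, the master regulator of class II genes, stood at 22.3 ± 3.40 normalized counts in knock-out retinas and 19.4 ± 6.56 in WT retinas (SD, n = 6 and 5) and was not called (limma adjusted p = 0.417). The calls for the pair of Nfy subunits concern subunits of NF-Y, a factor with many other targets, and that of Nfya ended with libraries scaled to their total (log2 fold change -0.14, limma adjusted p = 0.0554).

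All 6 tested lysosomal and killing genes rose, by 1.82 to 3.60 on the log2 scale. Ctss, the cysteine protease that trims the invariant chain, had 988 to 1538 normalized counts in knock-out libraries (median 1195), against 289.9, 199.8, 248, 223 and 239 in WT libraries. Its groups were far apart (log2 fold change 2.35, SE 0.13, limma adjusted p = 2.32e-09). Mpeg1, the pore-forming perforin-2 of macrophages, had 609 to 862 normalized counts in knock-out libraries (median 686), against 179.7, 137, 144, 123 and 168 in WT libraries. Cybb, the catalytic subunit of the phagocyte NADPH oxidase, had 48.7 to 84.3 normalized counts in knock-out libraries (median 66.0), against 4.79, 6.44, 9.71, 1.09 and 4.01 in WT libraries. That was the second largest rise of the members (log2 fold change 3.60, SE 0.32, limma adjusted p = 3.93e-08), from a WT mean of 5.21. Laptm5, a lysosomal membrane protein of leukocytes, had 216 to 301 normalized counts in knock-out libraries (median 261), against 73.1, 73.6, 57.3, 69.8 and 89.1 in WT libraries. Cd68, the scavenger receptor used to stain phagocytic lysosomes, had 64.4 to 108 normalized counts in knock-out libraries (median 100.1), against 16.8, 12.9, 21.4, 26.2 and 20.03 in WT libraries. The lysozyme gene Lyz2 rose 5.55-fold in the means. 15.4% of the 50-base windows of Lyz2 also occur in Lyz1, which had 3 reads in all knock-out libraries together.

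The 5 genes known from damage-associated microglia moved by widely different amounts. Itgax, the integrin CD11c, had 44.4 to 87.4 normalized counts in knock-out libraries (median 55.9), against 2.40, 2.76, 0.971, 0 and 2.00 in WT libraries. It had the largest rise of the members and the 8th largest of all tested genes (log2 fold change 4.70, SE 0.32, limma adjusted p = 4.15e-10). The fold rests on 384 reads in all knock-out libraries and 8 in all WT libraries. 8.02% of its windows also occur in Itgad, which had 1 read in knock-out and 0 in WT libraries. Cst7, an inhibitor of lysosomal cathepsins, had 12.7 to 28.7 normalized counts in knock-out libraries (median 16.1), against 0, 2.76, 5.82, 1.09 and 2.00 in WT libraries. It too was near the counting floor in WT retinas (log2 fold change 2.75, SE 0.40, limma adjusted p = 1.5e-05). Lgals3, the sugar-binding galectin-3, had 119 to 155 normalized counts in knock-out libraries (median 149), against 34.7, 22.1, 13.6, 25.1 and 16.02 in WT libraries. Lgals3 met the filter in WT retinas alone and rose by 2.69 (SE 0.19, limma adjusted p = 6.82e-10).

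Gpnmb and Spp1 were the exceptions among the damage-associated genes. Gpnmb, a lysosomal glycoprotein also made by pigment cells, had 269.9 to 396 normalized counts in knock-out libraries (median 339), against 187, 129, 109.7, 106 and 123 in WT libraries. It rose by 1.35 (SE 0.14, limma adjusted p = 7.96e-07), with WT replicate 1 high in its group. Spp1, the secreted protein osteopontin, had 432 to 608 normalized counts in knock-out libraries (median 507), against 527, 468, 454, 417 and 449.6 in WT libraries. Its groups overlapped and it was not called (log2 fold change 0.14, SE 0.10, limma adjusted p = 0.276). With libraries scaled to their total count, which shifts the median of all tested genes by 0.14, Spp1 was called higher (log2 fold change 0.27, limma adjusted p = 0.0261). Spp1 is also a retinal ganglion cell gene. Of 8 ganglion cell markers 7 fell and 1, the potassium channel gene Kcng4 (0.997 on the log2 scale), rose, with a median log2 fold change of -0.35. Of 7 tested pigment epithelium markers, counted without Trpm1, which bipolar cells also express, only Pmel rose (1.74), and their summed level was 540 to 1048 normalized counts in knock-out libraries and 428 to 700 in WT libraries. The part of ganglion or pigment cells in Spp1 and Gpnmb was not tested.

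**Figure D2:**
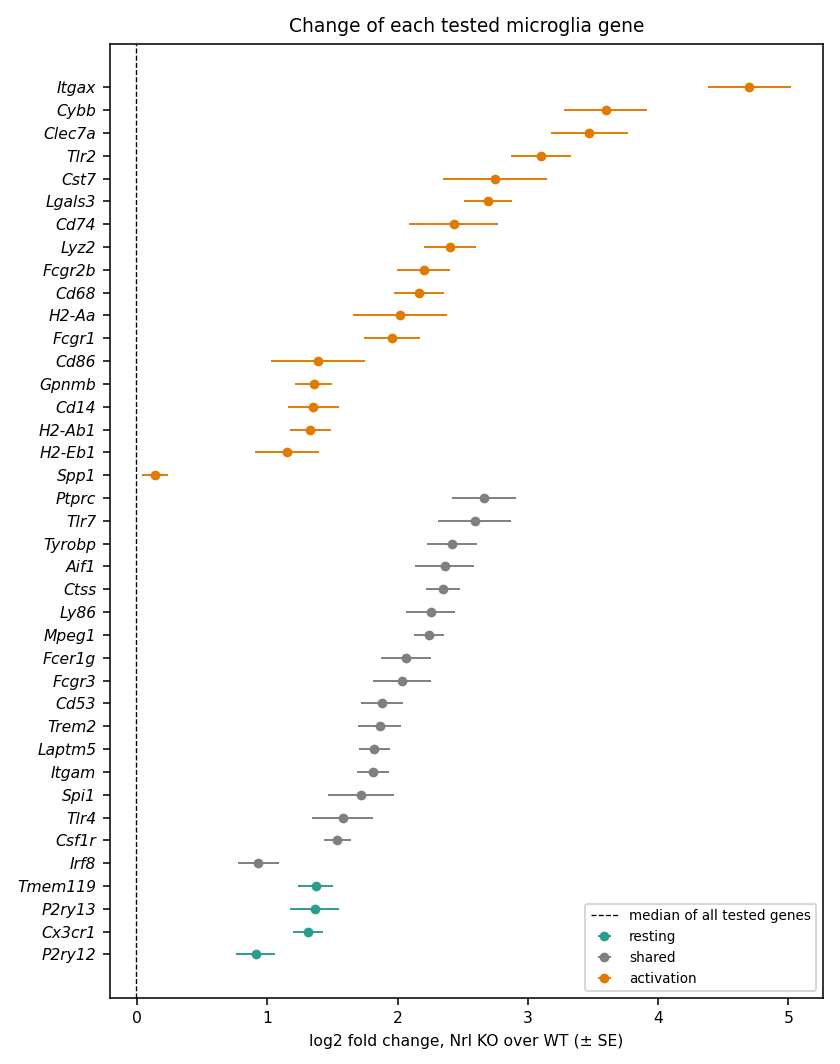
Log2 fold change (Nrl KO over WT, points) with its standard error (bars) for the 39 tested members, coloured by class, with the median of all tested genes as a dashed line. The 4 resting-state genes lie between 0.91 and 1.37, the shared genes between 0.93 and 2.66, and the activation genes between 0.14 (Spp1) and 4.70 (Itgax).

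Both resting-state and activation genes rose, and whether activation genes rose more depended on the measure. 4 of 4 resting-state genes, 17 of 17 shared genes and 17 of 18 tested activation genes were called higher, with median log2 fold changes of 1.34, 2.04 and 2.18. The class median was also taken in each library, relative to the WT mean of each gene. For resting-state genes it lay at 1.05 to 1.63 in knock-out libraries and -0.17 to 0.22 in WT libraries. For activation genes it lay at 1.82 to 2.50 in knock-out libraries and -0.11 to 0.28 in WT libraries. The difference, activation minus resting-state, was 0.93 ± 0.20 in knock-out libraries (0.64 to 1.15) and 0.00 ± 0.16 in WT libraries (SD, n = 6 and 5). WT values lie near 0 by construction, since each gene was set against its own WT mean. 11 of the 18 activation genes and 0 of the 4 resting-state genes met the filter only through the knock-out libraries. The difference is therefore partly built into the filter. No p-value is given for these class values, as the genes were chosen with results of these data known.

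**Figure D3:**
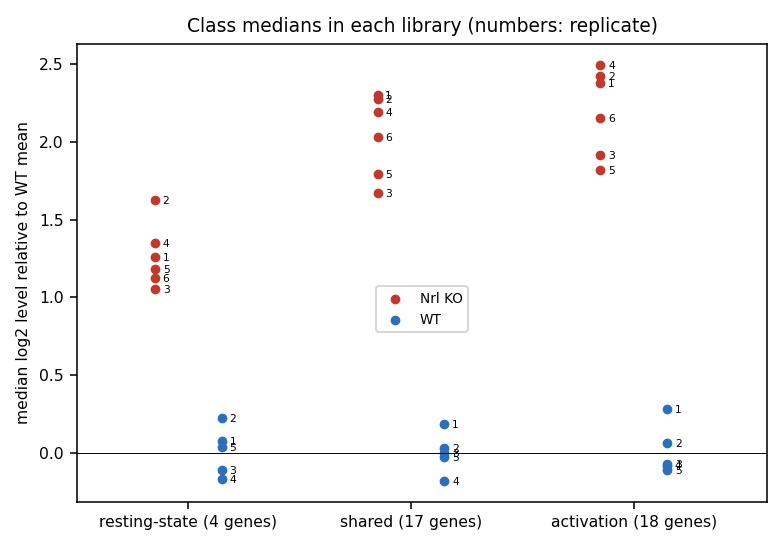
Median over the genes of a class of the log2 level relative to the WT mean of each gene, one point per library (numbers give the replicate), for Nrl KO (red, left) and WT (blue, right). Knock-out libraries lie at 1.05 to 1.63 for resting-state genes and 1.82 to 2.50 for activation genes.

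The size of the class difference depended on the level of the genes in WT retinas. 12 tested members had a WT mean under 10 normalized counts, 9 of them activation genes and none resting-state, and their log2 fold changes ran from 1.39 to 4.70 with a median of 2.48. The 27 members at or above 10, among them 9 activation and 4 resting-state genes, ran from 0.14 to 2.69 with a median of 1.82. Among the 7 activation genes that met the filter in WT retinas alone, 6 rose, and their median log2 fold change was 1.35, against 1.34 for the 4 resting-state genes. Those 7 include Lgals3, Lyz2 and Cd68, above the resting-state range, and Spp1, below it. By share of reads, activation genes took 0.0106% ± 0.00171 in knock-out libraries and 0.00409% ± 0.000465 in WT libraries, a ratio of 2.59 that Spp1 and Gpnmb weigh down. Without that pair the shares were 0.00567% ± 0.000972 and 0.000957% ± 0.000154, a ratio of 5.92. The pair was left out with its values known, and the resting-state class was kept whole, so 5.92 is not a like comparison with that class. Resting-state genes took 0.00372% ± 0.000564 in knock-out and 0.00142% ± 0.000109 in WT libraries, a ratio of 2.62, and shared genes 0.0239% ± 0.00352 and 0.00535% ± 0.000500, a ratio of 4.47 (SD, n = 6 and 5 throughout).

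**Figure D4:**
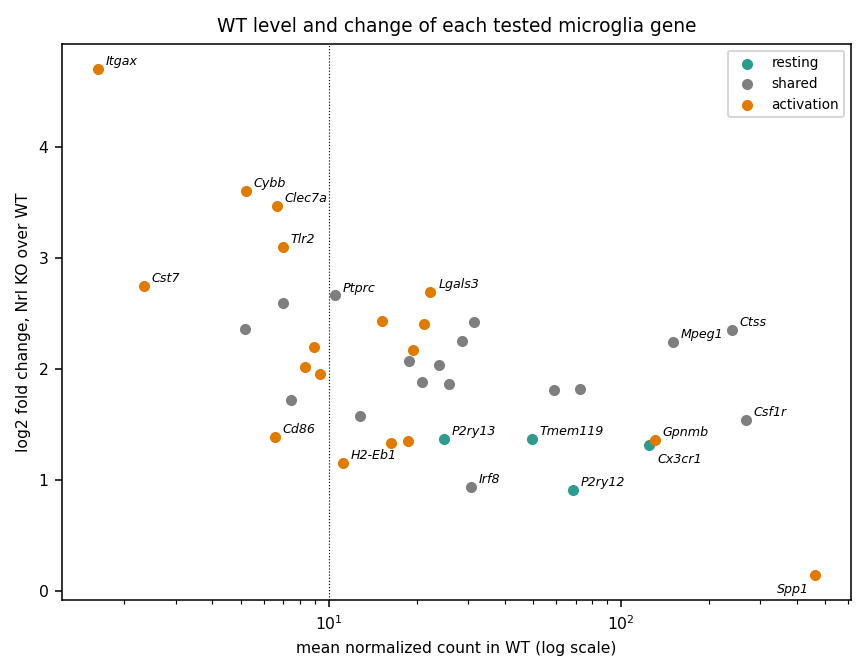
Log2 fold change (Nrl KO over WT) of each tested member against its mean normalized count in WT retinas (log axis), coloured by class, with a dotted line at 10 normalized counts. The largest changes (Itgax 4.70, Cybb 3.60, Clec7a 3.47, Tlr2 3.10) lie left of the line, where no resting-state gene lies.

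To compare members free of library scaling, each was divided by Csf1r in the same library and the log2 ratio was compared between genotypes by an exact two-sided permutation test over 462 splits, adjusted over 38 ratios. 16 members gained on Csf1r, 3 lost, and 19 were not called. The smallest p that this test can give is 0.00216. Since Csf1r itself rose, most genes lost on it: over the ratios of all 14583 other tested genes, adjusted over all of them, 1.78% gained and 94.9% lost. With that adjustment, added after the data were seen, 19 members gained, with Itgam, Cd68 and Cd74 as the further ones, and the same number, 3, lost. The ratio of P2ry12 fell by 0.63, with a mean log2 ratio of -2.57 ± 0.22 in knock-out libraries and -1.94 ± 0.16 in WT libraries (SD, n = 6 and 5, exact permutation p = 0.00216, adjusted p = 0.00588). That of Irf8 fell by 0.60, with -3.68 ± 0.23 in knock-out and -3.08 ± 0.20 in WT libraries. That of Spp1 fell by 1.40, with -0.60 ± 0.17 in knock-out and 0.80 ± 0.13 in WT libraries. The groups of all 3 were apart, and both Irf8 and Spp1 had the same exact p as P2ry12. So P2ry12 rose in level and fell relative to Csf1r. The other 3 resting-state genes were not called, with differences of -0.17 for Tmem119 (adjusted exact permutation p = 0.254), -0.17 for P2ry13 (0.465) and -0.22 for Cx3cr1 (0.123).

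The largest gains on Csf1r were those of Itgax (3.17), Cybb (2.06), Clec7a (1.94), Tlr2 (1.57) and Cst7 (1.21), all activation genes that are low in WT retinas. Lgals3 gained 1.16. Among shared genes, Ptprc gained 1.13, Tlr7 1.06, Tyrobp 0.88, Aif1 0.83, Ctss 0.81, Ly86 0.72, Mpeg1 0.71 and Fcer1g 0.53. Lyz2 gained 0.87 and Fcgr2b 0.66. By class, 0 of 4 resting-state, 8 of 16 shared and 8 of 18 activation genes gained, and 1 of each class lost. 9 of the 16 gains (Itgax, Cybb, Clec7a, Tlr2, Cst7, Fcgr2b, Ptprc, Tlr7 and Aif1) are of genes that met the filter only through the knock-out libraries. Among genes that met it in WT retinas alone, 0 of 4 resting-state, 5 of 11 shared and 2 of 7 activation genes (Lgals3 and Lyz2) gained. The class II and co-stimulation genes were not called: Cd74 0.89 (adjusted exact permutation p = 0.0666), H2-Aa 0.48, H2-Ab1 -0.21, H2-Eb1 -0.39 and Cd86 -0.15. Neither were Spi1 (0.18), Tlr4 (0.04), Trem2 (0.33), Fcgr3 (0.50), Cd14 (-0.18) or Gpnmb (-0.18).

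8 of the 16 gains (Itgax, Cybb, Clec7a, Tlr2, Lgals3, Ptprc, Ctss and Mpeg1) and all 3 losses held in each of 16 other runs of this test without pairing. With Laptm5, which has no overlapping gene on the opposite strand, in place of Csf1r, Aif1, Ly86, Tyrobp, Fcer1g, Fcgr2b, Lyz2 and Cst7 were no longer called. In that run the resting-state genes Tmem119 (-0.45, adjusted exact permutation p = 0.0137) and Cx3cr1 (-0.51, adjusted p = 0.0224) and the class II gene H2-Ab1 (-0.49, adjusted p = 0.0494) were called lower beside P2ry12 (-0.91). The gain of Cst7 ended when any one library other than WT replicate 3 or 4 was left out (adjusted exact permutation p = 0.0517 to 0.0952), and that of Tlr7 when knock-out replicate 2, 4, 5 or 6 was left out (adjusted exact permutation p = 0.0503 each). With a pseudocount of 5 the gains of Tlr7 (0.53), Fcgr2b (0.30) and Cst7 (0.15) ended, and H2-Ab1 (-0.37) and H2-Eb1 (-0.59) were called lower (adjusted exact permutation p = 0.00633 each). Leaving out WT replicate 4 brought calls for Itgam (0.34), Trem2 (0.51), Cd68 (0.82), Cd74 (1.10) and Fcgr1 (0.59). Leaving out WT replicate 5 brought them for Cd53 (0.47) and Laptm5 (0.39), WT replicate 3 for Fcgr3 (0.68), WT replicate 2 for H2-Ab1 (-0.27), WT replicate 1 for Cd74 (1.07), and knock-out replicate 1 for Cd14 (-0.30). Without knock-out replicate 2 and WT replicate 1 together, Cx3cr1 was called lower (-0.34).

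**Figure D5:**
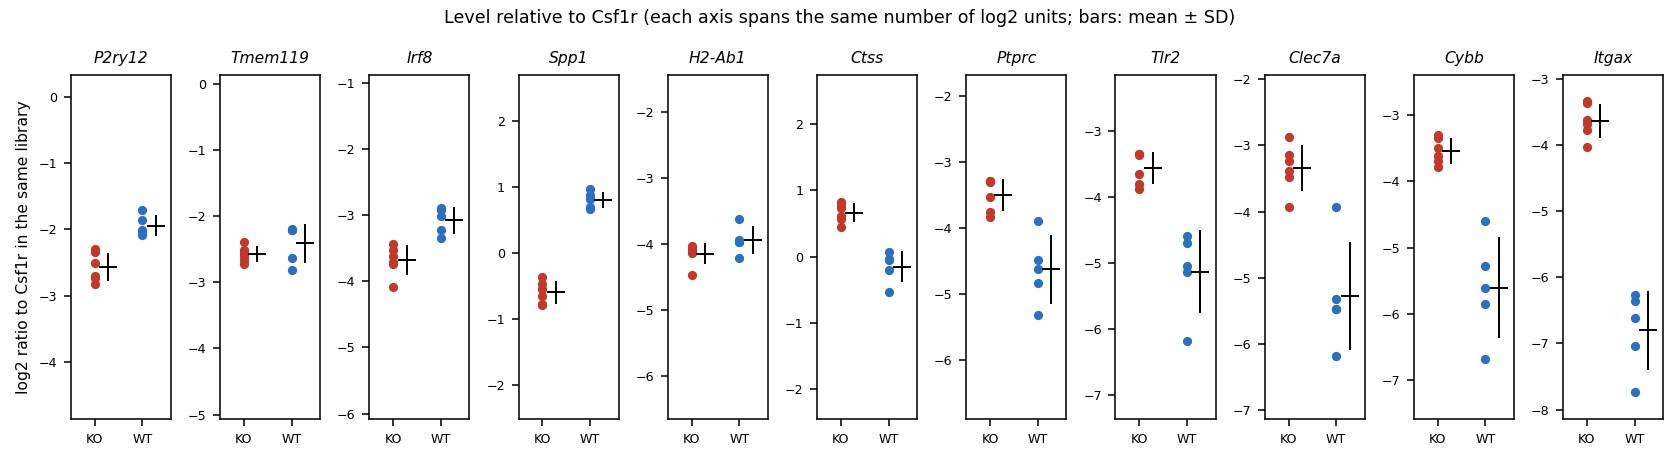
Log2 ratio of 11 members to Csf1r in the same library, one point per library, with mean ± SD beside the points, for Nrl KO (red, left, n = 6) and WT (blue, right, n = 5). All axes span the same number of log2 units. P2ry12, Irf8 and Spp1 lie lower in knock-out libraries, and Itgax lies 3.17 higher.

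The members varied together between libraries of a genotype. Among knock-out libraries, replicates 2 and 4 held the highest value for 16 and 15 of the 39 tested members, and replicates 3 and 5 the lowest for 14 and 18. Replicate 4 was above the knock-out median in 35 members and replicate 5 in 5. Among WT libraries, replicate 1 was highest for 17 members and replicate 4 lowest for 15. Knock-out replicate 2 and WT replicate 1 are the shallowest libraries of their genotypes. Without both, 38 members still rose, and the class medians were 1.24 for resting-state, 2.12 for shared and 2.20 for activation genes. The labels give no batch or date.

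Per length, as reads per kilobase of exon scaled to library size (RPKM), Ctss was the highest member in knock-out retinas, at 52.8 ± 10.01, against 9.33 ± 1.23 in WT retinas (SD, n = 6 and 5). Spp1 came next in knock-out retinas at 18.1 ± 2.99, and was the highest in WT retinas at 14.8 ± 1.10. Tyrobp (17.2 ± 3.27), Mpeg1 (9.59 ± 1.504) and Csf1r (9.18 ± 0.97) followed in knock-out retinas and did not separate fully: the spreads of Spp1 and Tyrobp overlapped, as did those of Mpeg1 and Csf1r. The lowest tested member in knock-out retinas was Cd86, at 0.391 ± 0.138, against 0.136 ± 0.088 in WT retinas.

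Other microglial genes moved mostly in the same direction but less uniformly. Of 16 further genes of resting microglia, 14 rose, 1 fell and Slc2a5 was not called, with a median of 0.98. The largest rises were those of Fcrls (2.04, SE 0.29), an Fc receptor-like gene, Cd33 (1.75, SE 0.25), a sialic acid receptor, and P2ry6 (1.66, SE 0.28), a receptor for UDP. Bin1, the most abundant, rose by 0.16, and neurons express it as well. Of 19 further tested activation genes, 15 rose, Igf1 (-0.19) and Hif1a (-0.56) fell, and Lpl and Cd83 were not called, with a median of 0.89. In WT retinas Hif1a averaged 16811 normalized counts and Igf1 981, against 267 for Csf1r. The part of other retinal cells in their values was not tested. Lilrb4, an inhibitory receptor, had 1 read in all WT libraries, so its log2 fold change of 3.46 depends on the pseudocount. Cd52 rose by 2.70 and Itgb2, the beta chain that pairs with the products of Itgam and Itgax, by 2.49. The lipid carrier Apoe, which Müller glia also express, averaged 17758 ± 1490 normalized counts in knock-out retinas and 8817 ± 967 in WT retinas (SD, n = 6 and 5), a log2 fold change of 1.01.

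Ligands and restraining signals of microglia split between directions. Csf1, a ligand of Csf1r, rose to 233 ± 38.8 normalized counts in knock-out retinas, against 100.5 ± 12.5 in WT retinas (SD, n = 6 and 5, log2 fold change 1.20, SE 0.12, limma adjusted p = 7.31e-08). Il34, the other ligand of Csf1r, was not called (-0.15, limma adjusted p = 0.296). Cx3cl1, the ligand of Cx3cr1, fell by 0.26, Cd200, a neuronal ligand that restrains microglia, fell by 0.18, and Sirpa, the receptor for Cd47, fell by 0.55 on the log2 scale. Sirpa averaged 3019 normalized counts in knock-out retinas and 4425 in WT retinas, against 773 and 267 for Csf1r. The part of other retinal cells in Sirpa was not tested. Cd47 (0.51), the growth factors Tgfb1 (0.57) and Tgfb2 (0.35), and Hmgb1 (0.31), a nuclear protein that acts as a danger signal outside cells, rose. In all, 5 of 10 tested genes of this list rose, 3 fell and 2 were not called. Among all tested genes 23.6% rose and 22.7% fell, so a split in direction is not particular to this list.

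Markers of other blood-derived cells were mostly low in both genotypes, and several were higher in knock-out retinas. Of the monocyte markers, Ly6c2 had 20 reads in all knock-out libraries and 1 in all WT libraries, Ccr2 had 10 and 1, Plac8 had 18 and 4, and Chil3 was at 0 in all 11. In the fit with no filter on low values Ly6c2 (1.70), Ccr2 (1.14) and Plac8 (1.16) were called higher. 3 markers of the list, which retinal cells also express, were tested, and 1 of them, Ly6c1, rose (0.43). 7 neutrophil markers summed to 0.926 to 11.7 in knock-out libraries and 0 to 2.40 in WT libraries, with Elane at 0 in all, and Ly6g was not analysed here. Of the tissue macrophage markers, 4 of 8 were tested: Ms4a7 (1.82) and Folr2 (1.23) rose, Stab1 was not called, and Lyve1 fell by 0.23, a call that ended in 13 other settings. The defining gene Mrc1 had 15 reads in all knock-out libraries and 35 in all WT libraries. F13a1, another marker of this list below the filter, had 7 and 18. With no filter on low values F13a1 was called lower (log2 fold change -1.34, limma adjusted p = 0.0206). In that fit Mrc1 (-1.39) and Lyve1 were not called, and Ms4a7 and Folr2 were again called higher.

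Among dendritic cell markers, Xcr1 rose to 58.4 ± 9.95 normalized counts in knock-out retinas, against 13.6 ± 2.83 in WT retinas (SD, n = 6 and 5, log2 fold change 2.03, limma adjusted p = 1.85e-08), whereas Flt3 and Zbtb46 were not called and Cd209a was at 0 in all libraries. With no filter on low values 3 of 7 genes of the list were called higher: Xcr1, Clec9a (0.996) and Siglec1 (1.55). The list summed to 191 to 221 normalized counts in knock-out libraries and 158 to 199 in WT libraries. Among T cell markers, Cd8a stood at 74.1 ± 19.3 normalized counts in knock-out retinas and 3.801 ± 1.75 in WT retinas (SD, n = 6 and 5, log2 fold change 4.03, SE 0.27, limma adjusted p = 3.06e-10). Lck was not called, and the other 6 T cell markers summed to 5.22 to 14.8 in knock-out libraries and 1.94 to 11.05 in WT libraries. Cd3e had 10 reads in all knock-out libraries together and 0 in all WT libraries. With no filter on low values 2 of 8 T cell markers, Cd8a and Cd3e (1.19), were called higher. The no-filter counts of the dendritic and T cell lists are likewise given without the share of all genes called in that fit. Of the B cell markers, Cd79a had 11 reads in all knock-out libraries and 5 in all WT libraries, Cd79b had 8 and 5, and Pax5 was at 0 in all. The part of monocytes, other macrophages, dendritic cells and lymphocytes in the microglial values was not tested.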

How the data were processed

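mRNA of whole retina was sequenced from 6 Nrl knock-out and 5 WT samples, grouped by their titles in the labels, as stranded single-end 50-base reads per the labels' protocols. The labels speak both of polyA RNA and of removal of ribosomal RNA. The authors deposited 1 table of normalized counts per gene, a signal made by dividing read counts by 1 size factor per library, with their log2 fold change, their adjusted p-value and their mean signal. Build mm9 and the tools TopHat2 2.1.1, HTSeq 0.6.0 and DESeq are listed in the submitters' processing notes. Neither annotation nor strand setting of the counting is stated there. For 100% of values a whole number of reads was recovered, within 0.001 of a read.

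limma 3.58.1 (R 4.3.3, trend and robust moderation, two-sided) was fitted to log2(normalized count + 1) of all 11 libraries with genotype as the only term, for 14584 genes with at least 10 normalized counts in at least 5 libraries. p-values were Benjamini-Hochberg adjusted over all of them. This scale understates changes of low genes. For a count of 0, 3 reads were taken as an approximate upper bound, and p-values and floors cover these libraries and counting error only. Alternatives were edgeR 4.0.16 and DESeq2 1.42.0 on the recovered counts, other scalings, filters, pseudocounts and thresholds, leaving out libraries, and, for ratios, adjustment over all tested genes, added after the data were seen. Exon lengths, overlaps and shared 50-base windows came from GENCODE M21 (GRCm38), promoters from RefSeq GRCm38.p6. No coordinate was taken from mm9. 1 deposited column was not used.

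The members, their classes and all lists were chosen with earlier results of these data known. All members are accounted for. From each other list the 3 called genes with the largest change and the most abundant gene were named, and genes named beyond that, such as those that moved against their list, were chosen after their values were seen. Some genes of the lists are not reported here.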

Additional observations from a re-analysis of the deposited data

Results flagged for a closer look

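In 5 of 78 groups of libraries examined over the 39 tested members, 1 library lay far from the others of its genotype. At the 95% critical value of Dixon's test used here, chance flags about 1 group in 20. Cx3cr1 reached 429 normalized counts in knock-out replicate 2, where the next highest knock-out library had 324. Trem2 reached 34.9 in WT replicate 4, where the next WT library had 24.3. Lyz2 reached 31.1 in WT replicate 1, where the next had 20.3, and Gpnmb reached 187 in the same library, where the next had 129. Clec7a reached 15.02 in WT replicate 5, where the next had 5.52. In each case every knock-out library still lay above every WT library.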

How the results depend on the processing

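Of the 39 tested members, 38 kept their call and direction in each of up to 23 other settings that could test them, and Spp1 was the exception (called higher only with libraries scaled to their total). With that scaling 5861 genes were called higher and 1711 lower over all genes, against 3448 and 3304. The stricter filter, a mean of at least 50 normalized counts, tested fewer genes and left 19 members called higher, 11 of them shared and 5 activation genes. A pseudocount of 5 brought the median log2 fold change of the activation genes to 1.75 and the ratios that lost on Csf1r to 5. With Laptm5 as denominator 9 ratios gained and 6 lost. Outside the 10 most abundant genes of each library, the WT shares of reads were 0.00158% for resting-state, 0.00596% for shared, 0.00456% for activation genes and 0.0121% for all members. Leaving out 1 library at a time, 14 to 21 ratios gained and 3 to 4 lost, and 38 members were called higher each time. 4 ratios that were not called changed sign: Spi1 to -0.19 (pseudocount 5) and -0.10 (Laptm5), Tlr4 to -0.20 (pseudocount 5), -0.24 (Laptm5) and between -0.082 and 0.16 with 1 library left out, Itgam to -0.012 (Laptm5), and Cd86 to between -0.40 and 0.046 with 1 library left out. The cause of these changes was not tested.

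Replicate numbers are shared by the genotypes, but same-numbered libraries deviated together weakly (correlations 0.147, 0.0498, 0.101, -0.131 and 0.225), and 2 of 5 matched their own number best, so the numbers were not taken as pairs. With the replicate number as a block, limma called 38 members higher, and 3462 genes higher and 3329 lower. The paired test of ratios called 0 gained and 0 lost, since 5 pairs allow no p below 0.0625. Depth limits Itgax, Cst7 and Lyz1, which had 8, 12 and 3 reads in all WT libraries together.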

Other observations

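Cd22, a sialic acid receptor of B cells that aged mouse microglia also express and that restrains phagocytosis there, was below the filter of the test. It had 5.79 to 18.7 normalized counts in knock-out libraries (median 12.9), against 0 in 4 WT libraries and 3.00 in WT replicate 5, which is 76 reads in all knock-out and 3 in all WT libraries. With no filter on low values Cd22 was called higher (log2 fold change 3.25, limma adjusted p = 4.55e-06), a fold that depends on the pseudocount. Cd79a and Ms4a1 were not called in that fit. The B cell marker Cd79a had 11 reads in all knock-out and 5 in all WT libraries, and Ms4a1 had 4 and 1. Siglec1, a sialic acid receptor of macrophages, had 86 reads in knock-out and 21 in WT libraries.

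In the authors' deposited table the log2 fold change of Itgax was 4.00 and that of P2ry12 0.90. The authors' deposited table gave 0.15 for Spp1, with an adjusted p of 0.271.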
